A study of Mus musculus with 4 samples.

Results

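Vascular smooth muscle cells of mouse hindlimb muscle were picked from droplet single-cell libraries by their contractile and calcium-handling genes. A cell was kept when it held more than 200 detected genes, less than 10% of its UMIs (unique molecular identifiers, each standing for 1 captured transcript) from mitochondrial genes, UMIs of at least 4 of the 7 genes Myh11, Pln, Lmod1, Fbxl22, Kcnab1, Ryr2 and Susd5, and at least 0.5% of its UMIs from Myh11, Acta2 and Tagln together. Of 18153 cells that passed the cell filter, 1577 (8.69%) met the rule. GFP+ cells gave 636 in the WT and 526 in the Sod1KO library, and GFP- cells gave 89 and 326. The values that chose these cells are given below as description only.

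The series addressed Schwann cells that reside in muscle, and smooth muscle cells of the vessels came along in its sorts. Hindlimb muscles (tibialis anterior and gastrocnemius) from male mice aged 2 months were digested, and live cells were sorted by fluorescence. All mice, controls included, carried the S100GFP-tg transgene, in which the S100B promoter drives enhanced GFP. WT mice had 2 intact Sod1 alleles, whereas Sod1KO mice lacked Sod1, the gene of the cytosolic copper and zinc superoxide dismutase. For each genotype 4 mice were pooled before sorting, so that each combination of genotype and sort gave 1 library, the GFP+ and GFP- libraries of a genotype came from the same pool, and the spread between mice cannot be seen. Genotype has no replicate, and the sorts were compared within each of the 2 pools with no test. Intervals are 95% intervals that cover counting error only, and a gene was called when its level differed at least 1.5-fold the same way in both library pairs. Where 4 values stand without library names, their order is WT GFP+, Sod1KO GFP+, WT GFP-, Sod1KO GFP-.

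Smooth muscle cells form the media of arteries, arterioles and veins and set vessel diameter. Calcium entering through voltage-gated channels or released from the sarcoplasmic reticulum activates myosin light chain kinase, and nitric oxide and cyclic nucleotides oppose this. Serum response factor and its partner myocardin drive the contractile genes through a DNA element named the CArG box, Notch3 signalling from the endothelium keeps arterial cells differentiated, and cells of elastic arteries lay down elastin and fibrillin. Pericytes, the mural cells of capillaries, share part of this programme.

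Sod1 itself was not lower in the libraries labelled Sod1KO. In core smooth muscle cells (defined below) its level was 75.8 CPM (UMIs scaled to the same total in every library) in WT and 76.0 in Sod1KO among GFP+ cells, and 78.2 and 74.0 among GFP- cells. The log2 ratios of Sod1KO over WT were 0.00 (-0.15 to 0.15) and -0.08 (-0.46 to 0.32). The libraries count tags at the 3' end of transcripts, a tag outside the deleted part of the gene checks nothing, and every genotype direction below rests on the labels.

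The cells carried the contractile apparatus well beyond the genes that chose them. Of 22 contractile genes not used by the rule, 22 were higher in the selected cells than in the other cells of the same library in each of the 4 libraries, with a median fold of 13.2 in WT and 9.49 in Sod1KO among GFP+ cells and 6.88 and 6.78 among GFP- cells. Myl9, the regulatory myosin light chain, was 15 to 64.4 times as high as in the other cells. Cnn1, calponin, was 77.4 to 264 times as high. Vcl, vinculin of focal adhesions in many cell types, was lowest of the 22 in the GFP- libraries, at 1.11 and 1.33 times. Summed over the selected cells, these markers fit the label in every library. In WT GFP-, however, 37 of the 89 selected cells (41.6%) were core cells, and 61.8% held at least 2 endothelial markers.

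The promoters of contractile genes are shown because these genes define the cells. RefSeq promoters of GRCm38.p6 were matched for 24 of the 28 genes. The CArG box, the element bound by serum response factor, was searched on both strands by its consensus in the 250 bases before the start, and 4 of the 24 genes (16.7%) held an exact match against 439 of 27025 genes (1.62%). The sequences below run 5' to 3' on the strand of the gene, with the box in capitals. The promoters of Fbxl22 (chr9:66514594-66514843, minus strand), Myl6 (chr10:128493010-128493259, minus strand), Myl9 (chr2:156775214-156775463, plus strand) and Vcl (chr14:20929148-20929397, plus strand) hold the box 222, 50, 161 and 227 bases before the start. The promoter of Acta2 (chr19:34255374-34255623, minus strand) held no exact match in this window and is shown for comparison.
Fbxl22: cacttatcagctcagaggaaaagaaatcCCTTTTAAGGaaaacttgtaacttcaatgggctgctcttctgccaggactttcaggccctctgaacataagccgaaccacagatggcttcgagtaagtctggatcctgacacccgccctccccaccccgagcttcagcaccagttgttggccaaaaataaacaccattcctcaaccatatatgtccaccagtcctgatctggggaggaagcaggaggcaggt
Myl6: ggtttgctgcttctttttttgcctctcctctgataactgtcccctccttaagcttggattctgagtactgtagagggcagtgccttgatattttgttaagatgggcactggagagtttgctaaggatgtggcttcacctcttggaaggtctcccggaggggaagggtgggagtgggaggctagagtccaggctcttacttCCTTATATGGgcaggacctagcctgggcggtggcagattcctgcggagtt
Myl9: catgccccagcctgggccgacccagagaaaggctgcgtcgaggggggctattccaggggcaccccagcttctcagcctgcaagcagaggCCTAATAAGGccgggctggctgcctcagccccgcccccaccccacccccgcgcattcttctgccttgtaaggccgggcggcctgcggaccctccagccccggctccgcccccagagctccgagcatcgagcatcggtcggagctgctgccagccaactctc
Vcl: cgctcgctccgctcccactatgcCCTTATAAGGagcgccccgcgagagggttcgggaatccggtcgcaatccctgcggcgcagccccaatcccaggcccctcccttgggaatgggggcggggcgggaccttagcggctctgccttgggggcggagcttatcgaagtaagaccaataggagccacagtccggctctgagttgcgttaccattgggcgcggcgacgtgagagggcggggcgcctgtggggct
Acta2: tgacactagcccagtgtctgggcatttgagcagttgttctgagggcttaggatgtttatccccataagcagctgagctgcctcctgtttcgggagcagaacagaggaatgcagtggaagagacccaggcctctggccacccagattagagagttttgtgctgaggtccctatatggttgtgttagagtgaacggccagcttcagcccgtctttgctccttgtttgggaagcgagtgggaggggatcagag
A match of letters is a description of the sequence and not a site of binding. Of the 4 genes with a box, Fbxl22 is a gene of the rule, while Vcl was among the least specific contractile genes.

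The edge of the rule mattered most in WT GFP-. Over the 4 libraries all 7 genes were detected in 905 cells, 6 in 353, 5 in 174 and 4 in 145, while 162 cells had the contractile share but only 3 of the 7 genes, and 86 had 4 or more genes but too low a share. The median share of UMIs from Myh11, Acta2 and Tagln was 4.08% in WT and 4.05% in Sod1KO among GFP+ cells and 1.81% and 2.98% among GFP- cells, and 116 cells lay between 0.5 and 1%. Of the 89 cells of WT GFP-, 25 had exactly 4 of the 7 genes and 19 had a share between 0.5 and 1%, and in that library 45 further cells met the share with 3 of the 7 genes.

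**Figure D1:**
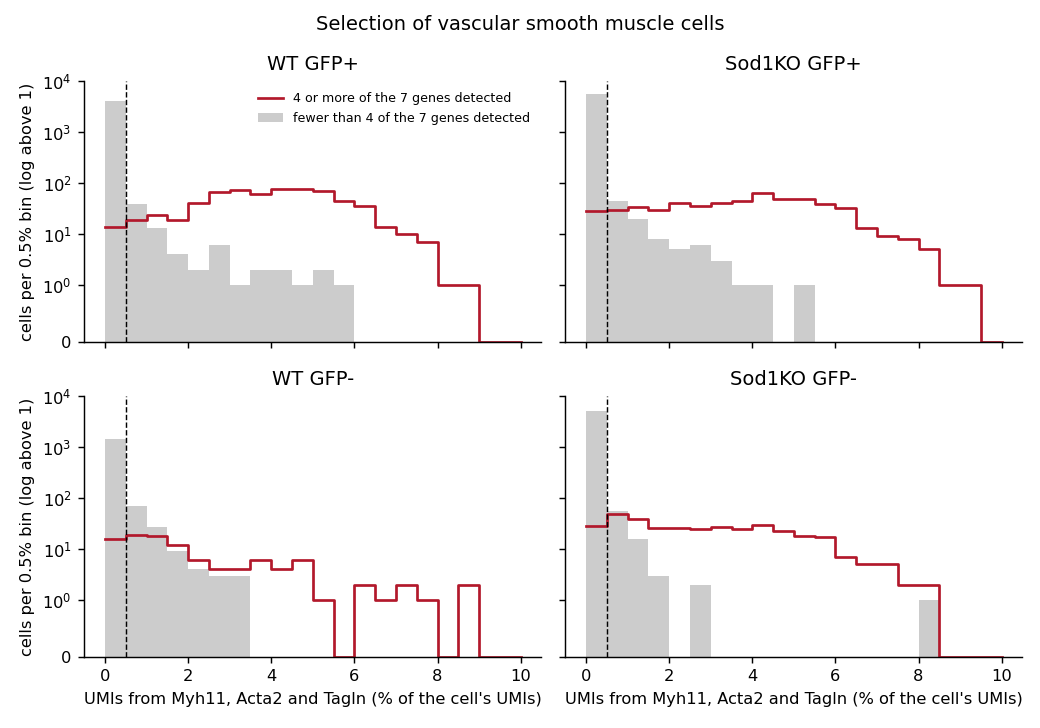
Share of each cell's UMIs from Myh11, Acta2 and Tagln (x axis, %) in the 4 libraries, with the number of cells per bin on a logarithmic y axis that is linear below 1; the red line holds cells with 4 or more of the 7 genes, the grey bars all others, and the dashed line marks 0.5%. In the GFP+ libraries the red line is broad around 4% while nearly all other cells lie below 0.5%, whereas in WT GFP- the red line is highest between 0.5 and 2%.

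Smooth muscle cells made up 13.3% (12.4 to 14.3) of the cells kept from WT GFP+ and 8.36% (7.69 to 9.07) of those from Sod1KO GFP+, a difference of -4.98 percentage points (-6.17 to -3.81). Among GFP- cells the shares were 5.35% (4.31 to 6.54) in WT and 6.0% (5.39 to 6.67) in Sod1KO, a difference of 0.658 points (-0.672 to 1.84). The share depended on the mitochondrial limit, which removed 99, 191, 14 and 338 barcodes that met the gene rule, the last of these being 50.9% of the barcodes that met it in Sod1KO GFP-. Over all barcodes, with no such limit, the differences were -3.50 points (-4.64 to -2.38) for GFP+ and 5.04 (3.80 to 6.19) for GFP-. A share also moves with every other cell type in the sort, so fewer smooth muscle cells and more of other cells cannot be told apart.

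The libraries differed in depth and in how many selected cells also carried genes of other lineages. Totals ran from 21959719 UMIs in WT GFP- to 105954116 in Sod1KO GFP+, and the median smooth muscle cell held 12046 to 22843.5 UMIs. At least 2 endothelial markers were detected in 40, 47, 55 and 138 of the smooth muscle cells, which is 6.29, 8.94, 61.8 and 42.3% of them. Over all pairs of libraries 42 cell barcodes were shared, 1 of them by smooth muscle cells.

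Clustering of the 1577 cells gave 10 subclusters, and 4 of these joined the smooth muscle programme to that of another cell type. Subcluster 6 (114 cells) held endothelial markers at a summed 4072 CPM and was led by Stmn2, the arterial endothelial gene Sema3g and the tight junction gene Cldn5. Subcluster 7 (104 cells) held haemoglobin and other erythroid markers at 6506 CPM together with endothelial markers at 2761 CPM and cell cycle markers at 749 CPM. Subcluster 8 (85 cells) held Schwann markers at 2648 CPM and mesenchymal markers at 12382 CPM, and subcluster 10 (39 cells) held tenocyte markers at 11913 CPM and was led by Chad and Thbs4. These 342 cells were set aside as mixed after their values had been seen, by a rule that a marker list of another type summed to more than 10 times its median over subclusters and more than 300 CPM. A doublet caller marked 159 of them and 5 of the others.

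The remaining 1235 cells (581 in WT and 430 in Sod1KO among GFP+ cells and 37 and 187 among GFP- cells), called core cells here, carry the comparisons that follow. In them the 8 endothelial markers summed to 28.5 to 67.3 CPM, the 8 macrophage markers to 7.62 to 35, the 6 erythroid markers to 13.6 to 36.4, the 8 Schwann markers to 10.2 to 62.4 and the 8 mesenchymal markers to 655 to 865, against 95907 to 100309 CPM for the 28 contractile genes. Core cells were 12.2% of the kept cells of WT GFP+ and 6.84% of Sod1KO GFP+, a difference of -5.35 points (-6.48 to -4.24), and 2.22% of WT GFP- and 3.44% of Sod1KO GFP-, a difference of 1.22 points (0.280 to 2.02). With 37 cells and 882462 UMIs, WT GFP- limits every comparison that uses it.

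The core subclusters differed in genes of calcium storage, receptors and matrix, among others. The subclusters were defined by their own genes, so these levels are a description, given as CPM of the summed UMIs of all 4 libraries. Subcluster 1 (306 cells) was richest in genes of calcium storage: Casq2, the calcium-binding protein of the sarcoplasmic reticulum, stood at 321 CPM there, at 185 in subcluster 4, at 76.8 and 74.3 in subclusters 2 and 3, and at 9.32 and 8.55 in subclusters 5 and 9. The calcium pump Atp2a2 reached 1343 CPM in subcluster 1 and 366 to 1003 in the other core subclusters. Subcluster 1 also held Adra1a, the alpha-1A adrenergic receptor through which noradrenaline constricts vessels, at 489 CPM against 7.0 in subcluster 9. Ednrb, the endothelin B receptor, stood at 80.9 CPM in subcluster 1 and at 1.46 to 13.4 in the others. Gamma-smooth muscle actin, Actg2, was nearly missing from subcluster 1, at 2.46 CPM. The genes of highest fold in subcluster 1 were Grp, which encodes gastrin-releasing peptide, Ankrd13c, Ube3c, Gm10563, Uba6, Spty2d1, Tmem132d and Ccdc138.

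Subcluster 5 (168 cells) had the highest matrix sum of the core. Eln, tropoelastin, was at 1151 CPM there against 84.2 in subcluster 1. Mgp, an inhibitor of calcification in the vessel wall, was at 3332 CPM in subcluster 5 and at 38.6 to 154 in the others. Fn1, fibronectin, reached 471 CPM against 29.1 to 128, and Col8a1 275 against 0.88 to 66.1. The summed level of 42 matrix and elastic fibre genes was 17218 CPM in subcluster 5 and 7937 in subcluster 1. Subcluster 5 also held the ATP-gated channel P2rx1 at 285 CPM, the angiotensin receptor Agtr1b at 72.5 CPM and the prostaglandin E receptor Ptger3 at 97.6 CPM, each at its highest among the core subclusters. Desmin (Des) was lowest there, at 138 CPM against 217 to 832. Its leading genes included Fgf14, which modulates sodium channels, Pappa2, Ccn3, Unc5c and Dkk3.

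Subcluster 2 (270 cells) had the largest contractile sum, 118783 CPM against 73379 in subcluster 1, with Smtn, smoothelin, at 694 CPM. Subcluster 3 (230 cells) was led by Ncapd3, Txndc11, Arih1, Il6 and Crispld2 and held Adra1a at 465 CPM. Subcluster 4 (192 cells) was led by the major histocompatibility class II genes Cd74, H2-Eb1, H2-Ab1 and H2-Aa together with Il1b, Mt3 and Foxf1, and had Acta2 at 27926 CPM, its highest level, and the calcium channel subunit Cacna1c at its lowest, 115 CPM. The macrophage markers summed to 51.6 CPM in subcluster 4, against 5.39 to 21.6 in the other core subclusters, and their part in its class II genes was not tested. The summed nuclear genes of oxidative phosphorylation and glycolysis were also highest in subcluster 4, at 12936 CPM against 4772 to 9914.

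Subcluster 9 (69 cells) departed from the label in part. Pln, phospholamban, 1 of the genes of the rule, stood at 7.77 CPM there against 349 to 768 in the other core subclusters, Smtn at 106 CPM and the sphingosine receptor S1pr3 at 8.55 CPM. Its leading genes were Colec11, which is on the pericyte marker list, Nts, Ccl19, H2-M9, Olfr1033, Sdc1, Ccl21a and Id4. It held Rgs5 at 2612 CPM, Col3a1 at 2395 CPM and Actg2 at 1080 CPM, and it was the subcluster with the transcription factor genes Prrx1 (775 CPM), Nr2f2 (1156 CPM) and Gata6 (46.6 CPM, against at most 0.61 elsewhere in the core). Of its cells 30 came from WT GFP+, 36 from Sod1KO GFP+ and 3 from the GFP- library of Sod1KO. Its pericyte markers summed to 4907 CPM, its mesenchymal markers to 2304 and its endothelial markers to 464, each above the other core subclusters. The endothelial sum fell just short of the limit that set mixed subclusters aside, and the subcluster is called by its number only.

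**Figure D2:**
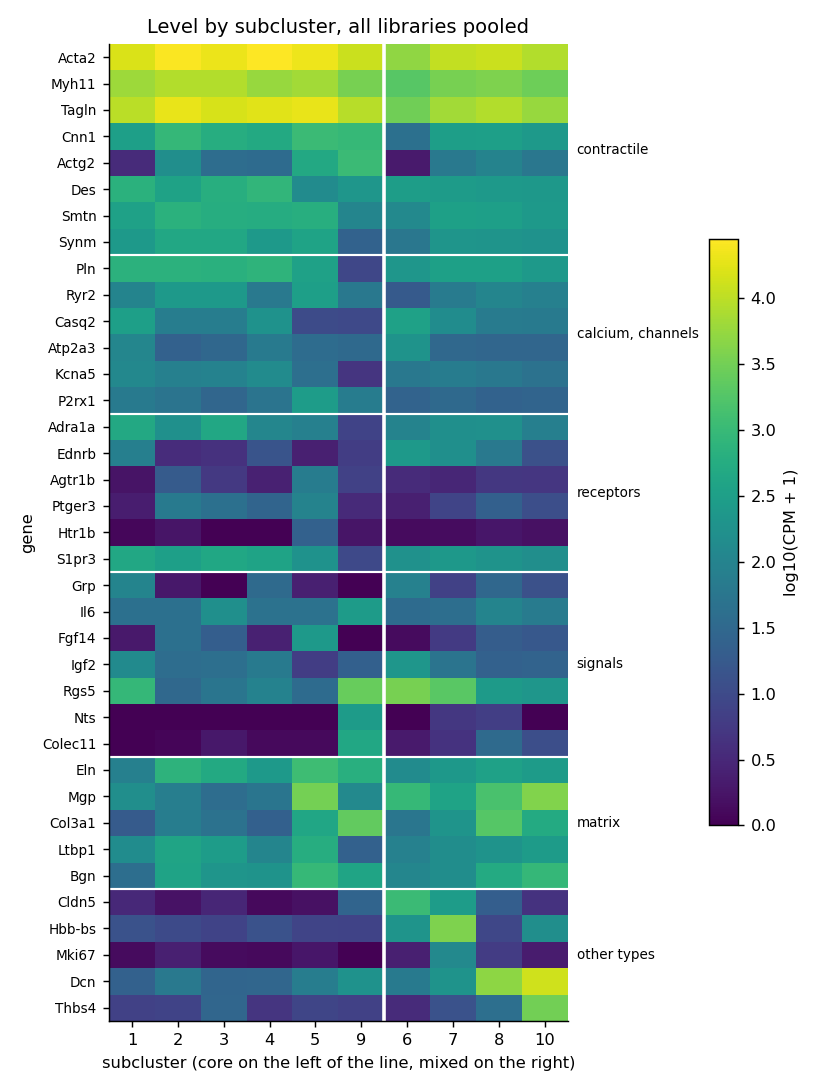
Level of genes (rows, grouped by role) in the 10 subclusters (columns), as log10 of CPM plus 1 with the 4 libraries pooled; core subclusters stand left of the vertical line and mixed subclusters right of it. Casq2, Ednrb and Grp are highest among core cells in subcluster 1, Eln and Mgp in subcluster 5, and Colec11 and Nts in subcluster 9.

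The proportions of these subclusters differed between the genotypes in the GFP+ sort. Because genes that differ between genotypes can shape the clusters, the cells were clustered again without 1912 such genes, which gave 8 subclusters. The counterpart of subcluster 1, which held 96.7% of its cells, took 26.4% of the WT and 14.1% of the Sod1KO smooth muscle cells of the GFP+ sort. The counterpart of subcluster 3 took 28.6% and 19.6%. The counterpart of subcluster 5, which also took 40.7% of the cells of subcluster 2, went the other way, from 15.4% in WT GFP+ to 28.5% in Sod1KO GFP+. The counterpart of subcluster 4 held 16.4% and 13.9%, and that of subcluster 9 held 4.56% and 7.41%. With all genes in the clustering the differences were -11.8 points (-16.1 to -7.28) for subcluster 1, -12.3 (-16.6 to -7.99) for subcluster 3, -5.46 (-9.16 to -1.69) for subcluster 4 and 15.4 (11.4 to 19.5) for subcluster 5. In the GFP- sort the counterparts of subclusters 1 and 3 went the other way, from 13.5% in WT to 21.8% in Sod1KO and from 5.62% to 12.3%, and with all genes the differences were 7.68 points (-1.86 to 15) and 1.54 (-4.82 to 5.20). In that sort the mixed subcluster with erythroid genes took 53.9% of the cells of WT in the second clustering and 9.82% of those of Sod1KO, and core subclusters 5 and 9 held 11 cells or fewer in each library.

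**Figure D3:**
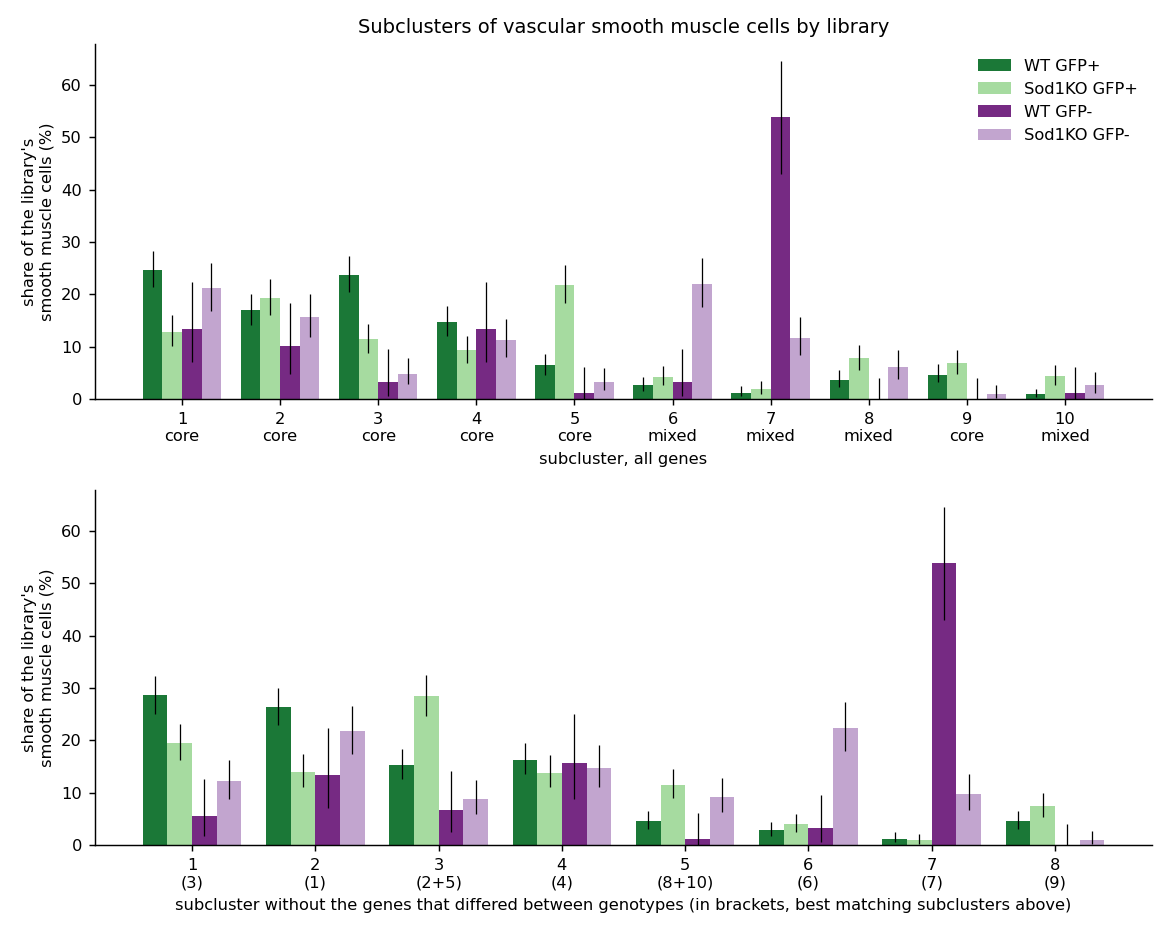
Share of each library's smooth muscle cells (y axis, %) in each subcluster (x axis), with 95% exact intervals for counting error as thin lines, for the clustering with all genes (upper panel) and for that without the genes that differed between genotypes (lower panel). In the GFP+ libraries the Sod1KO bar is lower than the WT bar for the counterparts of subclusters 1 and 3 and higher for the counterpart of subclusters 2 and 5, and the tall WT GFP- bar in both panels is the mixed erythroid subcluster.

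Between genotypes, the contractile genes of core cells gave 1 call, whereas several matrix genes were higher in Sod1KO and several genes that lead subclusters 1 and 4 were lower. In core cells 76 of 7634 genes tested (0.996%) were at least 1.5-fold higher in Sod1KO in both sorts, and 43 (0.563%) were at least 1.5-fold lower. Without subcluster 9 the counts were 57 and 46 of 7540. Over all 1577 cells, mixed cells included, they were 357 (3.46%) and 49 (0.474%) of 10327, and 39 of the 76 and 23 of the 43 were among these. In that wider set the genes of largest ratio included the fibroblast genes Lum, Smoc2 and Cxcl14 and the cell cycle genes Cdkn3 and Ube2c, and the summed mesenchymal markers stood at 1717 CPM in WT GFP+ and 5911 in Sod1KO GFP+, and at 3927 and 4818 in the GFP- libraries. Their part in the count over all cells was not tested.

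Of 28 contractile genes tested, 1 rose and 0 fell, with median log2 ratios of -0.02 in GFP+ and -0.03 in GFP-, beside -0.03 and -0.05 for all genes tested. Acta2, alpha-smooth muscle actin, stood at 21664 CPM in WT and 21779 in Sod1KO among GFP+ cells and 23467 and 21585 among GFP- cells. Myh11, smooth muscle myosin heavy chain, stood at 7301, 6816, 7785 and 7077 CPM in the same order. The 4 libraries thus lay within a narrow band for both. Myosin light chain kinase, Mylk, had log2 ratios of -0.30 and 0.09 that differed in sign. Tpm1, tropomyosin, was lower in both pairs but short of the call, at -0.29 and -0.28.

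Actg2 was the contractile gene that rose. It stood at 134 CPM in WT and 276 in Sod1KO among GFP+ cells and 21.5 and 127 among GFP- cells, so that it was 2.06-fold higher in Sod1KO in the GFP+ pair and 5.91-fold in the GFP- pair. After each cell was thinned to 5000 UMIs, Actg2 was detected in 15.1% of core cells of WT GFP+ and 34.4% of those of Sod1KO GFP+ (23.0% and 44.1% unthinned, median depths of 20944 and 17231 UMIs). In GFP- it was detected in 1 of 37 thinned core cells of WT and 28 of 186 of Sod1KO (8.11% and 21.5% unthinned). The larger fold thus rests on few WT cells. In cells with at least 4 Schwann markers, which should lack it, 1.23% and 5.59% held a UMI after thinning (median depth 7060.5 and 8283.5 UMIs). Actg2 (chr6:83512909-83536251, GRCm38.p6) was 440 times as high in subcluster 9 as in subcluster 1. In GFP+ the log2 ratio of Actg2 was -0.21 within subcluster 2 and -0.36 within subcluster 9, and at equal weights for subclusters 1 to 5 it was 0.55 beside 1.04 pooled, short of 1.5-fold.

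Matrix and elastic fibre genes formed the group with the most calls. Of 33 tested, 8 rose and 0 fell (0.996% of all genes tested rose), and the median log2 ratios were 0.45 in GFP+ and 0.08 in GFP-. Eln (chr5:134702595-134747368) stood at 463 CPM in WT and 706 in Sod1KO among GFP+ cells and 262 and 442 among GFP- cells, 1.53-fold and 1.69-fold higher. Fbn1, the fibrillin of elastic microfibrils, was 1.99-fold and 1.92-fold higher. Col3a1, a fibrillar collagen, rose from 189 to 339 CPM in GFP+ and from 29.5 to 80.1 in GFP-. Ltbp4, Mfap5, Col6a1, the basement membrane gene Nid1 and Dcn were the others. At equal weights for subclusters 1 to 5, given below, 0 of the 8 reached 1.5-fold in GFP+, and over all smooth muscle cells Fbn1 turned to a log2 ratio of -0.15 in GFP-. Dcn is also a mesenchymal marker, and the mesenchymal markers summed to 720 and 865 CPM in the core cells of the GFP+ pair and to 678 and 655 in the GFP- pair; their part in the matrix result was not tested. Eln was detected in 58.1% and 70.8% of thinned core cells of WT GFP+ and Sod1KO GFP+ (77.7% and 83.7% unthinned), and in 0.850% and 3.06% of thinned cells with Schwann markers.

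Of 16 genes that handle calcium tested, 0 rose and 2 fell, beside 0.563% of all genes tested that fell. As a group they had no common direction: 6 were above 0 in both pairs and 6 below, with median log2 ratios of -0.06 in GFP+ and 0.13 in GFP-. Casq2 (chr3:102086415-102146514) stood at 132 CPM in WT and 81.0 in Sod1KO among GFP+ cells and 298 and 197 among GFP- cells, 1.63-fold and 1.51-fold lower. Atp2a3, a calcium pump of the reticulum, stood at 53.9, 35.7, 134 and 56.1 CPM, 1.51-fold and 2.38-fold lower. At equal weights for subclusters 1 to 5, taken up below, the GFP+ log2 ratios were -0.15 for Casq2 and -0.31 for Atp2a3, short of 1.5-fold. Pln, which restrains the pump Atp2a2, did not pass, with log2 ratios of -0.15 and 0.43. Among 18 ion channel genes 1 rose, Abcc9, a subunit of ATP-sensitive potassium channels, 1.78-fold and 2.19-fold. The calcium channel Cacna1c (0.27 and 0.40) and the large-conductance potassium channel Kcnma1 (0.05 and 0.44) did not pass. Abcc9 and Higd1b are pericyte markers, and 2 of 8 pericyte markers tested rose and 1, Ndufa4l2, fell. In GFP- the log2 ratio turned to -0.71 for Abcc9 and to -0.52 for Higd1b over all smooth muscle cells, and to -0.022 for Abcc9 without cells that held endothelial markers.

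Among 13 vasoactive receptors 1 fell and 0 rose. Ednrb (chr14:103814615-103844508) stood at 23.1 CPM in WT and 8.18 in Sod1KO among GFP+ cells and 79.3 and 30.2 among GFP- cells, 2.82-fold and 2.63-fold lower. With a stricter cell filter of more than 500 genes and less than 5% mitochondrial UMIs its GFP+ log2 ratio turned to 0.31, and within subclusters 1 to 5 it was above 0 in 3 of 5. Ednra, the endothelin A receptor, lay between 94.7 and 129 CPM in the 4 libraries and was not called. Adra1a pointed in opposite directions, at 306 against 212 CPM in GFP+ and 207 against 327 in GFP-. Ednrb is also a Schwann cell gene, and the thinned share of cells with an Ednrb UMI was 6.4% and 2.59% in core cells of WT GFP+ and Sod1KO GFP+ (12.1% and 5.90% unthinned) and 11.8% and 30.4% in cells with Schwann markers. The share in the core lay below that in the Schwann cells and is not read as a count of expressing cells.

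Other regulators of vessel tone and identity gave few or no calls. Of 23 genes of cyclic nucleotide and G protein signalling 1 rose, Prkca, a protein kinase C. Of 23 genes for integrins, the dystrophin complex and caveolae 3 rose, the integrins Itga5 (1.64-fold and 2.28-fold) and Itga9 (1.83-fold and 1.90-fold) and delta-sarcoglycan, Sgcd (1.71-fold and 2.26-fold). None of 15 smooth muscle transcription factors tested passed, Myocd included, at log2 ratios of 0.39 and 0.10. The 10 Notch genes tested also gave 0 calls, although 8 of them were below 0 in both pairs, with median log2 ratios of -0.15 and -0.24. Over all genes tested, 2742 of 7634 were below 0 in both pairs, with medians of -0.03 and -0.05. Notch3 stood at 551, 495, 552 and 463 CPM and the Notch target Hes1 at 684, 486, 788 and 687 CPM. Of 22 genes of TGF-beta, PDGF and IGF signalling 1 fell, Igf2, and of 26 genes of oxidative phosphorylation and glycolysis 1 fell, Ndufa4l2, at 304, 184, 462 and 256 CPM, although its GFP+ log2 ratio was 0.11 with the stricter cell filter. Antioxidant genes (25 tested), immediate early and heat shock genes (22), clock and glucocorticoid genes (18) and genes of phenotypic modulation (7) gave 0 calls. The mitochondrial superoxide dismutase Sod2 stood at 218, 212, 263 and 255 CPM.

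Several of the largest ratios upward belonged to genes of low level. Gipc2 (chr3:152093839-152165900), an adaptor with a PDZ domain, stood at 3.93 CPM in WT and 22.4 in Sod1KO among GFP+ cells and 5.67 and 17.4 among GFP- cells, with log2 ratios of 2.51 (2.05 to 2.99) and 1.62 (0.33 to 3.29). Tacr1, the substance P receptor, stood at 1.39, 5.5, 4.53 and 13.8 CPM. Fgf14 (chr14:123974441-124677686) stood at 28.1, 95.5, 12.5 and 29.7 CPM. Its thinned share of cells rose from 6.06% to 17.0% in GFP+ (9.0% and 23.3% unthinned). Cells with Schwann markers in the same libraries gave 0% and 0.262%, where 0 of 1059 cells allows up to 0.283%. In GFP- its thinned share did not rise, at 5.41% of 37 core cells in WT and 5.38% of 186 in Sod1KO (8.11% and 10.8% unthinned). In CPM, both Sod1KO libraries lay above the WT library of the same sort for each of these 3 genes, which the rule asks for. Unc5c, a netrin receptor, was 2.97-fold and 5.65-fold higher.

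For Dpt, a matrix gene of fibroblasts, Csmd1 and Cp, ceruloplasmin, no UMI was found in WT GFP-. Against a floor of 3 UMIs they were at least 4.52-fold, 4.67-fold and 5.57-fold higher in Sod1KO GFP-, and 3.46-fold, 2.63-fold and 3.06-fold higher in the GFP+ pair. Most of their UMIs lay in subcluster 9, which had no cell in WT GFP-: in GFP+ it held 381 UMIs of Dpt in Sod1KO and 167 in WT, 757 and 517 of Csmd1, and 158 and 72 of Cp. With a stricter member rule (at least 5 of the 7 genes and 1% of UMIs from Myh11, Acta2 and Tagln) the GFP+ log2 ratios turned to -0.31 for Dpt, -0.017 for Csmd1 and -0.58 for Cp. Gm26802 and Gm44956 complete the list with Gm42418, a locus that overlaps ribosomal RNA sequence, which stood at 14486, 33791, 14307 and 34106 CPM. Gm42418 alone therefore took a larger part of the UMIs in both Sod1KO libraries.

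The largest ratios downward included Grp, which leads subcluster 1, and Mt3 and Foxf1, which are among the leading genes of subcluster 4. These 2 were not particular to subcluster 4. In GFP+, Foxf1 stood at 85.7 CPM in WT and 52.5 in Sod1KO in subcluster 1, beside 74.0 and 38.0 in subcluster 4. Mt3 stood at 85.4 and 66.4 CPM in subcluster 1, beside 91.4 and 48.9. Grp stood at 21.7 CPM in WT and 7.41 in Sod1KO among GFP+ cells and 206 and 46.1 among GFP- cells, 2.93-fold and 4.48-fold lower. Its thinned share of core cells was 5.19% and 2.83% in GFP+ and 27.0% and 10.2% in GFP- (unthinned 7.61, 3.77, 29.7 and 14.5%), against 0.189% and 0.175% of the Schwann cells of the GFP+ libraries. Igf2 (chr7:142650768-142666816), an imprinted growth factor gene, stood at 72.2, 31.3, 107 and 56.3 CPM, 2.31-fold and 1.89-fold lower. Mt3, a metallothionein, stood at 36.3, 16.1, 105 and 44.6 CPM. Among transcription factor genes, Irx3 was 2.17-fold and 3.63-fold lower and Foxf1 2.09-fold and 2.33-fold lower. Cd36, a receptor for fatty acids, was 1.97-fold and 1.99-fold lower. Gm8797, a predicted gene whose reads may be shared with related copies, the antisense transcript Hoxd3os1 and the kinase gene Mylk4 complete the list. In each of these 10 genes both sorts pointed the same way, which the rule asks for.

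**Figure D4:**
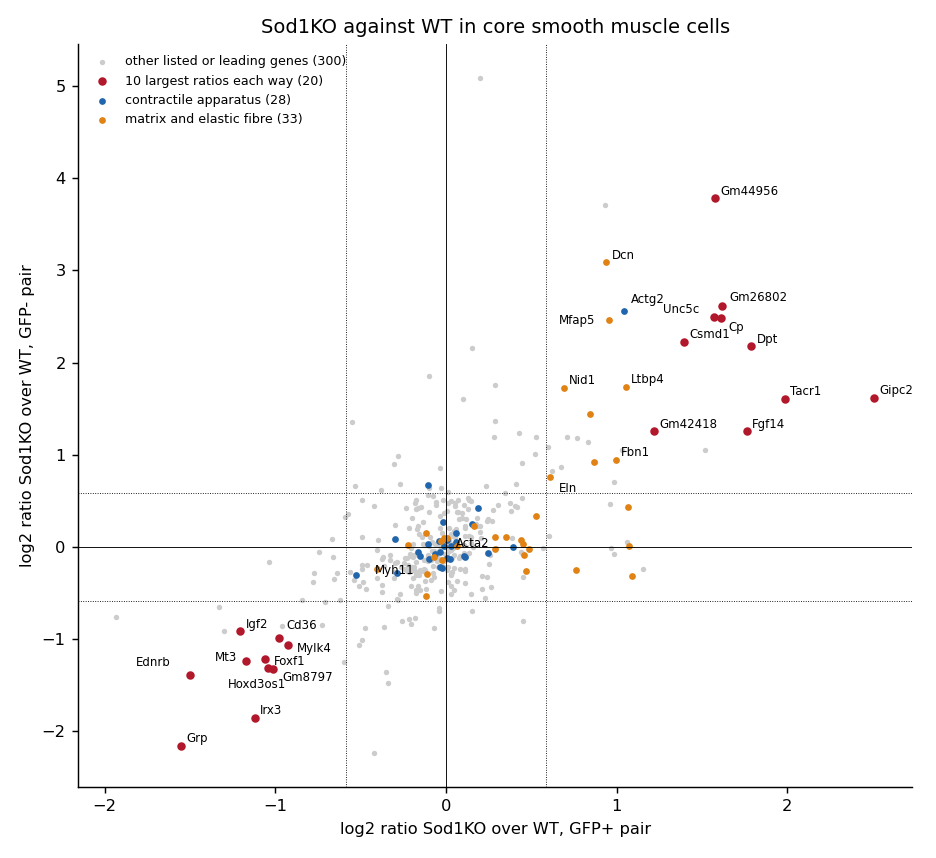
Log2 ratio of Sod1KO over WT in core cells for genes that were listed or leading, in the GFP+ pair (x axis) and the GFP- pair (y axis), with dotted lines at 1.5-fold; a ratio against a library with 0 UMIs is drawn at the bound set by 3 UMIs. Contractile genes (blue) cluster at 0 except Actg2, and 8 matrix genes (orange) lie past both dotted lines.

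Since the 2 genotypes held different proportions of subclusters, the GFP+ ratio was also taken at equal weights for subclusters 1 to 5. These subclusters come from the clustering with all genes, those that differ between genotypes included. A gene that helped to set them apart can lose part of its ratio within them by construction, so these values are a description. At equal weights the ratio came down to near 0 for part of the genes. Eln went from 0.61 to 0.12 on the log2 scale, Col3a1 from 0.85 to 0.01, Nid1 from 0.69 to 0.07, Casq2 from -0.71 to -0.15, Abcc9 from 0.83 to -0.04, Itga5 from 0.71 to -0.16 and Cp from 1.61 to -0.23. Fgf14 kept 0.60 of 1.76 and Unc5c 0.57 of 1.57. For these genes most of the pooled ratio was not seen at equal weights, which also leave out subcluster 9. Fbn1, Col6a1 and Itga9 stayed above 0 in 5 of 5 subclusters, at 0.45, 0.35 and 0.35 beside 0.99, 0.87 and 0.87 pooled. Ltbp4 went from 1.05 to 0.34, Dcn from 0.94 to 0.39 and Mfap5 from 0.96 to -0.46, so that all 8 matrix calls were lost at equal weights, as was that of Actg2. Mgp, a matrix gene without a call, turned from 0.29 pooled to -1.25 at equal weights. Within subcluster 5 it stood at 6311 CPM in WT GFP+ and 2143 in Sod1KO GFP+, whereas its ratio was above 0 in the other 4 subclusters.

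Other genes pointed the same way in most subclusters that gave a ratio, in part at a smaller size. Gm8797 was lower in 5 of 5 subclusters and had -0.83 at equal weights beside -1.01 pooled, Igf2 was lower in 5 of 5 with -0.81 beside -1.21, and Irx3 lower in 5 of 5 with -0.67 beside -1.12. Mylk4 was lower in 5 of 5, with -1.22 beside -0.92. Gm42418 was higher in 5 of 5, with 1.18 beside 1.22. Gipc2 was higher in 4 of 5, with 1.73 beside 2.51, and Tacr1 was higher in the 2 that gave a ratio. Hes1 was lower in 5 of 5 subclusters, at -0.31. Ednrb and Grp did not: Ednrb was lower in 2 of 5 and higher in 3, among them subclusters where it is scarce, with -0.87 at equal weights beside -1.50 pooled. Grp gave a ratio in 2 subclusters, 1 in each direction, and -0.68 at equal weights beside -1.55 pooled.

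**Figure D5:**
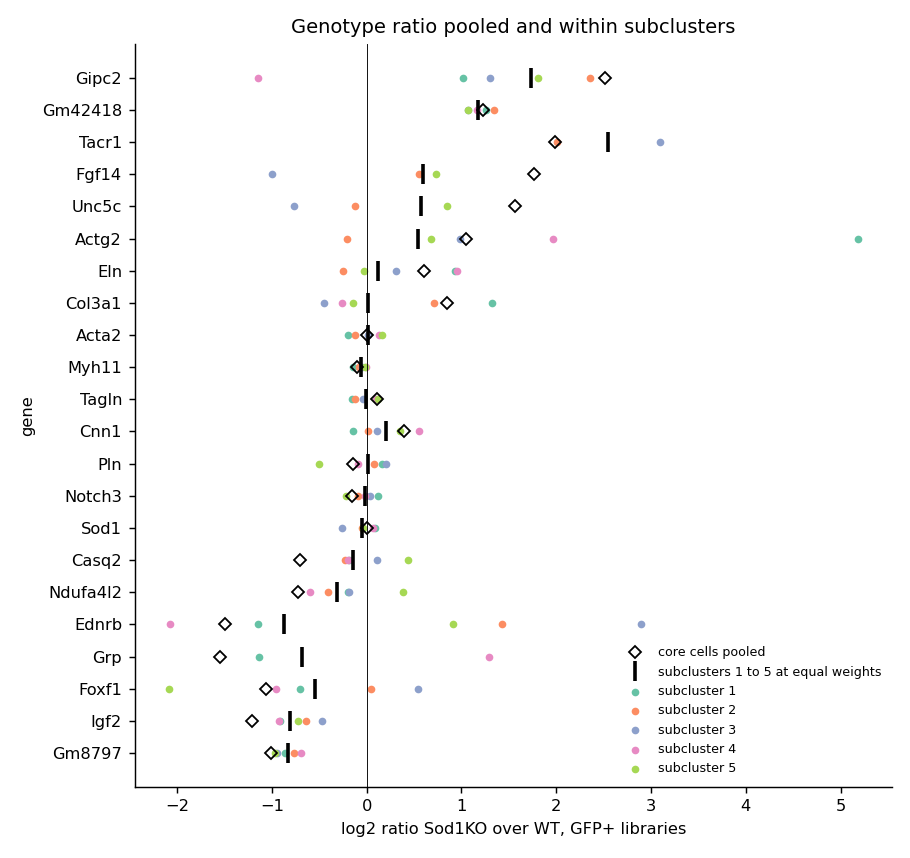
Log2 ratio of Sod1KO over WT in the GFP+ libraries (x axis) for 22 genes (y axis), with core cells pooled (diamonds), at equal weights for subclusters 1 to 5 (bars) and in each of these subclusters (dots; a subcluster with too few UMIs for a direction has no dot). For Eln, Col3a1 and Casq2 the bar lies near 0 although the diamond does not, whereas for Gm42418, Igf2 and Gm8797 bar, diamond and dots lie on the same side of 0.

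The sorts were compared within each genotype. Most GFP+ core cells held no UMI of S100b, whose promoter drives the reporter. S100b stood at 3.77 CPM in WT and 10.6 in Sod1KO among GFP+ cells and 0 and 3.33 among GFP- cells. Its thinned share was 2.25% and 5.19% of GFP+ core cells against 84.8% and 63.0% of cells with Schwann markers in the same libraries. Among core subclusters S100b was highest in subcluster 9, at 68.4 CPM over all 4 libraries, and lowest in subcluster 3, at 0.718. Of the cells of subcluster 9, 30 came from WT GFP+, 36 from Sod1KO GFP+ and 3 from Sod1KO GFP-. In core cells 353 of 9886 genes (3.57%) were at least 1.5-fold higher in GFP+ in both genotypes and 130 (1.31%) were lower, beside 323 (2.94%) and 651 (5.93%) of 10986 over all smooth muscle cells, where haemoglobin and endothelial genes led the lower side. Without subcluster 9 the counts were 215 and 120 of 9609.

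Of 34 matrix genes tested, 7 were higher in GFP+ and 0 lower, with median log2 ratios of 0.29 in WT and 0.42 in Sod1KO. Mgp stood at 569 CPM in WT GFP+ and 111 in WT GFP-, and at 695 and 109 in the Sod1KO libraries, 5.13-fold and 6.39-fold higher in GFP+. Eln, Fbn1, Mfap5, Col3a1, Col6a1 and Fn1 were the other 6. S100a4, a calcium-binding protein, was 2.74-fold and 2.71-fold higher. The contractile genes again gave 1 call of 28, Actg2, at 134 against 21.5 CPM in WT and 276 against 127 in Sod1KO.

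Receptors and channels parted between the sorts. Among 20 receptors tested, Agtr1b (11.9 against 5.67 CPM in WT, 28.6 against 5.12 in Sod1KO), Ptger3 and the prostacyclin receptor Ptgir were higher in GFP+, whereas Ednrb, the adenosine receptor Adora2b and Calcrl, part of the receptor for calcitonin gene-related peptide, were lower. Calcrl stood at 32.3 against 98.6 CPM in WT and 25.3 against 38.4 in Sod1KO. Of 21 channels 3 were higher, the subunits Kcnj8 and Abcc9 and the mechanosensor Piezo1, and 2 were lower, among them Kcna5 (94.9 against 152 CPM in WT, 68.5 against 110 in Sod1KO). Casq2 was 2.25-fold and 2.43-fold lower in GFP+. Of 27 genes of oxidative phosphorylation and glycolysis 0 were called, although 23 were below 0 in both genotypes, with medians of -0.25 and -0.25. Over all genes tested, 2655 of 9886 were below 0 in both, with medians of 0.01 and 0.03. Of 10 pericyte markers tested 4 (Kcnj8, Abcc9, Higd1b and Colec11) were higher in GFP+, and subcluster 9, which is led by Colec11, lay almost wholly in the GFP+ libraries. These calls turned with the choice of cells: over all smooth muscle cells 1 of the 10, Colec11, was higher in GFP+ and 6 were lower, Kcnj8 (log2 ratios of -3.26 in WT and -1.34 in Sod1KO) and Abcc9 (-2.02 and -0.66) among them.

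The largest ratios between sorts were Actc1, cardiac actin, which had 0 UMIs in WT GFP- and stood at 49.4 CPM in WT GFP+, 62.5 in Sod1KO GFP+ and 2.56 in Sod1KO GFP-, and Iigp1, an interferon-induced GTPase, at 20.8 against 2.27 CPM in WT and 79.1 against 5.12 in Sod1KO. Nts, neurotensin, had 0 UMIs in both GFP- libraries and was at least 6.25-fold higher in WT GFP+ and at least 13.1-fold higher in Sod1KO GFP+. Schwann markers summed to 34.2 and 62.4 CPM in GFP+ and to 10.2 and 10.5 in GFP-; how much of the sort result they carry was not tested. Trarg1, Csmd1, Podn, Colec11, Ptprd and Ccl19, whose reads may be shared with its copies, were also among the genes of largest ratio. Lower in GFP+ were Grp (9.50-fold in WT and 6.22-fold in Sod1KO), Ednrb (3.43-fold and 3.69-fold), Ccdc85a, Pde8b, Opcml, Pcsk1, Cd36, Ctla2a, Hhip and Mt3.

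Pericytes, the other mural cells, served for comparison. A narrow set of 147 pericyte-like cells (18 in WT and 23 in Sod1KO among GFP+ cells and 22 and 84 among GFP- cells) was defined after the values were seen, with at least 3 of Kcnj8, Abcc9, Rgs5 and Higd1b detected, no UMI of 5 endothelial genes and less than 0.1% of UMIs from mesenchymal genes. Both sets were cut on markers, so the folds are a description. In all 4 libraries 295 of 3205 genes (9.2%) were at least 2-fold higher in core smooth muscle cells and 187 (5.83%) at least 2-fold lower. Over all smooth muscle cells, mixed cells included, 282 of 4742 (5.95%) were higher and 214 (4.51%) lower, and against a wider set of 439 pericyte-like cells, which carried the fibroblast gene Dcn, 556 of 5456 (10.2%) were higher and 370 (6.78%) lower. Schwann markers summed to 92.2, 993, 7.60 and 494 CPM in the pericyte-like cells of the 4 libraries, and their part was not tested.

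Of 27 contractile genes tested, 21 were higher in smooth muscle and 0 lower, and 6 of the 21 (Myh11, Acta2, Tagln, Lmod1, Fbxl22 and Susd5) had chosen the cells. Smtn was 5.30 to 6.4 times as high over the 4 libraries, Mylk 4.11 to 8.60 times and Tpm2 6.32 to 19.1 times. Vcl was not called, at 0.719 to 0.902 times. Of 11 transcription factors tested Myocd, Klf2 and Klf4 were higher and 3 lower, with Klf4 at 2.22 to 6.97 times and Ebf1 4.38 to 4.86 times lower. Ryr2, the ryanodine receptor of calcium release and a gene of the rule, had 0 UMIs in the pericyte-like cells of every library. Kcnma1 had 0 UMIs in 3 libraries and 2 in Sod1KO GFP-, and was at least 20.1-fold higher in smooth muscle in WT GFP+, at least 32.4-fold in Sod1KO GFP+ and at least 17.2-fold in WT GFP-. Sorbs2, a scaffold of stress fibres, stood at 1865 CPM in the core cells of WT GFP+ and at 42.6 in pericyte-like cells, the smallest fold of the 4 libraries being 17.4.

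Of 7 vasoactive receptors tested 2 were higher in smooth muscle and 1, Ednrb, was lower. Adra1a was 3.31 to 9.25 times as high and Ramp1, a partner of Calcrl, 2.70 to 18.6 times. Of 10 Notch genes Notch2, Hey2, Nrip2 and Nrarp were higher, Nrarp at 2.36 to 2.94 times. Notch3 was not called and stood at 0.569 to 0.747 times its pericyte level. In the other direction 8 of 9 pericyte markers were lower, 4 of which had chosen the pericyte-like cells. Rgs5, 1 of those 4, was lower by a factor of 25.3 to 31.7 and Pdgfrb, the PDGF receptor of mural cells, by 4.97 to 8.84. Of 27 matrix genes 4 were higher (Lox, Loxl1, Lama5 and Sparcl1) and 6 lower, among them Mgp by a factor of 6.30 to 21.9. Lama2, a laminin chain that was not on the list, was lower by 18.8 to 27.2.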

How the data were processed

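The deposited values were UMI counts for each gene in each cell. Per the processing notes and file headers, the authors used Cell Ranger 7.1.0 and the notes name mm10, whereas the methods give another version and name GRCm39 as well as GRCm38. The counts still held ambient RNA and doublets, which the authors removed at a later step. UMIs were summed over cells and scaled to CPM in Python 3.11.15 with numpy 2.4.6 and scipy 1.17.1. Of 451 listed genes 3 were not found by symbol. Genes needed 50 UMIs over each pair of libraries, and a ratio against 0 UMIs used a floor of 3 UMIs and was dropped where that bound pointed away from the counts. Shares carry Clopper-Pearson intervals, their differences Newcombe intervals and ratios conditional binomial intervals. Cells were clustered with leidenalg 0.10.2 (2000 variable genes, 30 principal components, 20 neighbours, resolution 0.5), and the ratio code was checked on simulated counts. Doublets were kept, and a caller based on simulated doublets, which marked 4.41, 5.82, 1.62 and 5.29% of the cells of the 4 libraries, served as an alternative.

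The text names the 10 genes of largest smaller ratio in each direction, the leading genes of subclusters, and genes of fixed lists, except a few that are not reported here. The members and lists were chosen with earlier results of these data known. Core cells and the narrow pericyte-like set were defined after seeing the data. Coordinates and promoters come from RefSeq tables of GRCm38.p6.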

Additional observations from a re-analysis of the deposited data

Results flagged for a closer look

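The difference in the share of smooth muscle cells between the genotypes had opposite signs in the 2 sorts, -4.98 percentage points in GFP+ and 0.658 points in GFP-. The GFP- interval (-0.672 to 1.84) spans 0, but the value there depended on the choice of cells. It was 1.22 points (0.280 to 2.02) for core cells and 5.04 (3.80 to 6.19) over all barcodes. With the stricter cell filter and with doublets removed, given below, it was under 0. The difference between the sorts was not tested.

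Barcodes outside the comparisons also met the gene rule: the mitochondrial limit removed 99 such barcodes in WT and 191 in Sod1KO among GFP+ cells, and 14 and 338 among GFP- cells, each above the 3 that a count of 0 allows.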

How the results depend on the processing

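With a limit of 5% mitochondrial UMIs and 500 genes, the share difference was -1.40 points in GFP+ and -3.24 in GFP-, where 51 and 52 cells were left. With a limit of 20%, chosen after seeing the data, the differences were -3.73 and 4.74, and with doublets removed the GFP- difference was -0.0977. Over all smooth muscle cells, the genes higher in Sod1KO numbered 92 with a minimum of 200 UMIs, 120 at 2-fold, 133 under the stricter cell filter, 185 without doublets, 76 in core cells and 57 in subclusters 1 to 5, against 357. The genes lower in Sod1KO numbered 31 with median-of-ratios size factors, 23 with 200 UMIs, 10 at 2-fold and 27 without doublets, against 49. Between sorts, 323 genes higher in GFP+ became 136 with 200 UMIs, 143 at 2-fold and 215 in subclusters 1 to 5. The 651 lower became 287, 350, 359 with the stricter member rule, 113 without cells that held endothelial markers, 130 in core cells and 120 in subclusters 1 to 5. Against the planned pericyte-like set, which also carried Dcn, 556 genes were higher and 370 lower over all smooth muscle cells. With 200 UMIs these were 289 and 110, at 4-fold 226 and 154, under the stricter cell filter 322 and 183, and against the narrow set 282 and 214. At resolution 0.3 subclusters 1, 3 and 4 merged, with a GFP+ difference of -28.5 points.

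Of 600 values for 39 named genes, 460 kept their value, 126 moved and 14 changed sign. The stricter member rule gave log2 ratios in GFP+ of -0.31 for Dpt, -0.58 for Cp, -0.017 for Csmd1 and -0.88 for Egfl7. The stricter cell filter gave 0.31 for Ednrb and 0.11 for Ndufa4l2 in GFP+. Leaving out cells with endothelial markers gave -0.50 for Egfl7 in GFP+ and -0.022 for Abcc9 in GFP-, and subclusters 1 to 5 alone gave -0.89 for Egfl7 in GFP+. All smooth muscle cells in place of core cells gave, in GFP-, -0.14 for Dpt, -0.71 for Abcc9, -0.15 for Fbn1, -0.52 for Higd1b and -0.25 for Egfl7. The cause of these changes was not tested. No paired test was run. Each group has 1 library, and the sorts, which share a pool within each genotype, were set side by side within each pool. Depth limits WT GFP- most, and ratios below 50 UMIs per pair were not formed. The core, subclusters 1 to 5, the narrow set and the clustering without genotype genes were added after seeing the data.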
